A study of Mus musculus with 15 samples.

Results

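Genes of purine, pyrimidine and folate synthesis were followed in mouse acute myeloid leukemia before and after the oncogene NRASG12V was switched off. The members were 33 named genes, chosen as probe sets whose platform gene symbol is exactly that name. Of these, 32 were measured among 18193 genes with a single symbol. Impdh2, which encodes an isoenzyme of IMP dehydrogenase, was not analysed here. Each gene was read by its brightest probe set, out of 74 probe sets for the 32 members, and levels are log2 of the deposited intensity. Of the 32 members, 30 lay above the median gene of every array. Tyms did so on 7 of 15 arrays and Dctd on 0, so values of these genes rest on a dimmer signal. No filter on dim genes was applied, so all 32 were tested.

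All 15 samples were total RNA of leukemia cells from spleens of SCID/Beige mice, which lack functional lymphocytes, and all carried the genotype NRASG12V/Mll-AF9. The cells had been injected through the tail vein and the leukemia had grown for 20 days, to over 100000 white blood cells per microlitre. The RAS-ON group, taken at 0 h from mice given vehicle, held 5 arrays. RAS-OFF groups held 2 arrays each at 48, 60, 72, 84 and 96 h after doxycycline, which turns the transgene off, was given by injection and in drinking water. The labels do not say which promoter drives NRASG12V, which leukemia clone was used or whether each array is a separate animal. If some share one, the p-values reflect technical spread. No array of untransformed spleen or of doxycycline without the transgene was analysed here, so an effect of the drug itself cannot be told apart from that of the switch.

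Cells make purine nucleotides in a chain of steps on activated ribose that ends in IMP, the parent of AMP and GMP, or rebuild them from free bases by salvage. Pyrimidines are made first as a free ring, which becomes UMP and then CTP. Ribonucleotide reductase turns the diphosphates into deoxynucleotides for DNA, and thymidylate synthase makes dTMP with a carbon carried by folate. Fast-growing blood cells depend on these routes, and drugs used in leukemia, such as cytarabine, act on them or are activated by them.

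Some features of the whole series bear on the members. RAS-ON arrays formed 2 sets. Over all genes, log2 differences had an SD of 0.166 to 0.219 within the set of arrays 1 to 3 and of 0.169 for the pair 4 and 5, but of 0.236 to 0.302 from one set to the other. The Gapdh control probe sets, whose 3-prime minus 5-prime difference is a sign of RNA integrity, stood at 1.22 on RAS-OFF 96 h replicate 1 and at 0.10 to 0.35 on the other arrays. The summed intensity of 12 measured erythroid genes, all above the median of every array, was 33678 to 40072 in RAS-ON and 79830 to 107225 in RAS-OFF arrays. All 12 measured myeloid genes, such as Mpo and Ctsg, were above the median of every array. The erythroid genes were too, so this level does not tell the cell types apart. Of the myeloid genes 3 rose (Csf3r, Kit and Ptprc), 7 fell, among them Mpo and Ctsg, and 2 did not pass. Their summed intensity was 68675 to 75871 in RAS-ON and 31520 to 45621 in RAS-OFF arrays. No marker is at 0 on this scale. Of 6 B-cell genes 1 rose and 4 fell, and of 7 T-cell genes 3 rose and 1 fell. In the same limma test, given below, 20.1% of all genes were higher and 28.7% lower. In bulk samples fewer cells of a type and less RNA per cell cannot be told apart. Nras itself was lower by 0.31 ± 0.09 (SE) on the log2 scale, with an adjusted p of 0.00725 in limma. The labels do not say whether its probe sets read the transgene.

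Of the 32 members 9 rose and 10 fell in limma's test of the mean of the 5 RAS-OFF times against RAS-ON, at an adjusted p below 0.05 over all genes. These are 28.1% higher and 31.2% lower, where 20.1% and 28.7% of all genes were called in those directions. In either direction 59.4% of members were called, against 48.8% of all genes and 63.7% (27.4% higher and 36.3% lower) of the 10916 genes left when the dimmest 40% were dropped. The median log2 change was 0.04 for the members and -0.04 for all genes. The balance of directions depends on the probe set: with the mean of probe sets as the gene value, 5 members were higher and 13 lower. With arrays centred on their medians 12 were higher and 9 lower. Over all genes, the 14 alternative fits that did not leave out 1 array called 2990 to 3968 higher and 3960 to 5353 lower. The lower end of each range came from the fit without the dimmest 40% of genes. The balance of the members was not compared with that of all genes fit by fit. The members that rose included 6 of the 9 deoxynucleotide genes, and those that fell included both nucleoside diphosphate kinases and 4 of 5 genes of the guanine branch and base salvage. The changes were moderate, from -1.22 for Aprt to 0.84 for Dck. No overlap between the 10 RAS-OFF and the 5 RAS-ON arrays was seen for 7 members: 3 were higher throughout (9.38%) and 4 were lower throughout (12.5%), where 9.36% and 12.0% of all genes showed such patterns. The plot of member changes gives all 32.

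**Figure D1:**
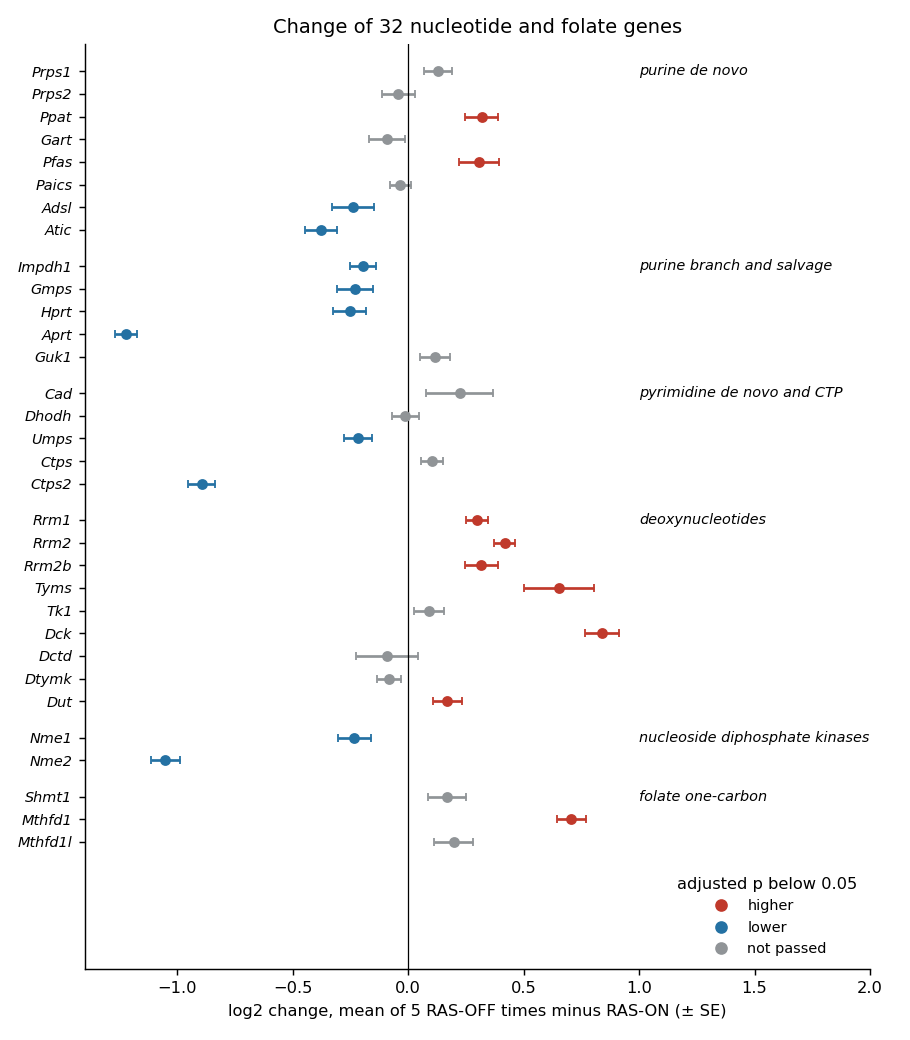
Log2 change of 32 members, mean of the 5 RAS-OFF times minus RAS-ON, on the x axis, with standard errors as bars and genes grouped by role on the y axis. Red marks the 9 members called higher, blue the 10 called lower and grey the 13 that did not pass; Aprt, Nme2 and Ctps2 lie farthest to the left and Dck and Mthfd1 farthest to the right.

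Among the 8 genes of the route to IMP, 2 rose, 2 fell and 4 did not pass. That is 25.0% in each direction, where 20.1% of all genes were higher and 28.7% lower. Without the dimmest 40% of genes the shares were 27.4% and 36.3%, so the split lay near that of all genes. Ppat, which encodes the amidotransferase of the first committed step, had log2 intensities of 9.57, 9.63, 9.42, 9.38 and 9.28 in RAS-ON arrays 1 to 5. In RAS-OFF arrays its lowest, median and highest values were 9.56, 9.78 and 10.05. All RAS-OFF arrays but 1 lay above the RAS-ON range, and the gene rose by 0.32 ± 0.07 (SE), with an adjusted p of 0.00189 in limma. The call rests on that probe set: another, also bright, changed by -0.21 ± 0.10 (SE; adjusted p = 0.111 in limma over all probe sets), and in the mean of all 3 the change was 0.04. Pfas, the next amidotransferase of the chain, rose by 0.31 ± 0.09 (SE; adjusted p = 0.00888 in limma). Its RAS-ON values ran from 9.55 to 10.002 and its RAS-OFF values from 9.78 to 10.51, with 7 of 10 RAS-OFF arrays above all RAS-ON arrays. The Pfas call was lost with the first 3 arrays as RAS-ON (0.25, adjusted p = 0.0512).

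Atic, the bifunctional enzyme gene of the last steps to IMP, moved the other way. Its RAS-ON log2 intensities were 11.63, 11.55, 11.65, 11.46 and 11.34, and its lowest, median and highest RAS-OFF values were 10.96, 11.17 and 11.32. The groups did not overlap, and limma gave a fall of 0.38 ± 0.07 (SE) with an adjusted p of 0.000448. A dimmer Atic probe set fell further, by 0.94 ± 0.13 (SE), and the mean of both fell by 0.66. Adsl, the adenylosuccinate lyase gene used both on the way to IMP and in AMP synthesis, was lower by 0.24 ± 0.09 (SE; adjusted p = 0.0417 in limma). That call was lost without RAS-ON replicate 1, 2, 3 or 4 (adjusted p = 0.101, 0.0775, 0.0676 and 0.0665). Among RAS-OFF arrays it was lost without either replicate of 60 h (0.0578 for 1 and 0.066 for 2) or without replicate 2 of 48 h (0.0725), of 72 h (0.0743) or of 84 h (0.0708). Its lowest value, 9.16, stood on 96 h replicate 1, where the Gapdh difference was 1.22; its other RAS-OFF values were 9.56 or higher.

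The remaining purine genes of this route changed little on their brightest probe sets. Paics, a bifunctional enzyme gene in the middle of the chain, was the brightest of the 8, at 12.87 to 13.01 in RAS-ON and 12.77 to 13.01 in RAS-OFF arrays, a change of -0.04 ± 0.05 (SE). Paics and Ppat are annotated head to head, at chr5:76951302-76967509 on the forward and chr5:76913249-76951578 on the reverse strand of GRCm38.p6, with overlapping ends. Prps1 and Prps2, which make the activated ribose, had changes of 0.13 ± 0.06 and -0.04 ± 0.07 (SE). Gart, a trifunctional enzyme gene that uses folate, had a change of -0.09 ± 0.08 (SE). Its other probe sets did not share that value: 2 fell, by 0.47 ± 0.06 and 0.81 ± 0.07 (SE), each with no overlap between the groups, and a dim one rose by 0.17 ± 0.06.

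Of the 5 measured guanine branch and salvage genes 4 fell and Guk1 did not pass. Their median was -0.23, against -0.04 for all genes. Falls were called for 28.7% of all genes and 36.3% of those left without the dimmest 40%. Aprt, which rebuilds AMP from free adenine, gave the largest change of all members. Its RAS-ON log2 intensities were 12.57, 12.63, 12.59, 12.47 and 12.53, while the RAS-OFF arrays had a lowest value of 10.98, a median of 11.38 and a highest of 11.57. All 10 RAS-OFF arrays lay far below the RAS-ON arrays, a fall of 1.22 ± 0.05 (SE), or 2.33-fold, with an adjusted p of 1.02e-10 in limma. The other Aprt probe set fell by 1.07 ± 0.06 (SE). Hprt, the salvage enzyme gene for hypoxanthine and guanine, fell by much less, 0.25 ± 0.07 (SE; adjusted p = 0.00755 in limma), with 9 of 10 RAS-OFF arrays below all RAS-ON arrays. With RAS-ON taken as arrays 1 to 3, Hprt changed by -0.15 and did not pass (adjusted p = 0.0979).

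In the branch to GMP, Impdh1, an isoenzyme of the rate-limiting step, fell by 0.20 ± 0.06 (SE; adjusted p = 0.0102 in limma), from 9.33 to 9.64 in RAS-ON to 9.23 to 9.40 in RAS-OFF arrays. Gmps, GMP synthetase, was lower by 0.23 ± 0.08 (SE; adjusted p = 0.0255 in limma) on its brightest probe set. A second Gmps probe set rose by 0.40 ± 0.09 (SE; adjusted p = 0.003 in limma over all probe sets), so the direction of Gmps depends on the probe set. Its call was also lost without RAS-ON replicate 1, 4 or 5 (adjusted p = 0.0627, 0.0631 and 0.0844), without RAS-OFF 60 h replicate 1 (0.052) and where arrays 1 to 3 stood for RAS-ON (0.259). Guk1, guanylate kinase, which makes GDP, had a change of 0.12 ± 0.06 (SE; adjusted p = 0.154 in limma).

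Of 5 pyrimidine genes, 2 fell and 3 did not pass. Among all genes 28.7% were called lower, and 36.3% of those left without the dimmest 40%, so 2 falls of 5 lay near these shares. Ctps2, a CTP synthase gene, had RAS-ON log2 intensities of 10.01, 10.02, 9.72, 9.96 and 9.90. The lowest, median and highest RAS-OFF values were 8.64, 9.11 and 9.32, all below the RAS-ON range. This was a 1.86-fold fall, or 0.90 ± 0.06 (SE) in log2, with an adjusted p of 1.54e-08 in limma. The 2 other Ctps2 probe sets, which lay below the median of every array, changed by -0.11 ± 0.06 and -0.04 ± 0.05 (SE). The other CTP synthase gene, Ctps, had a change of 0.10 ± 0.05 (SE; adjusted p = 0.1 in limma), with 10.24 to 10.36 in RAS-ON and 10.29 to 10.65 in RAS-OFF arrays.

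Umps, which encodes the enzyme of the last 2 steps to UMP, fell by 0.22 ± 0.06 (SE; adjusted p = 0.00842 in limma), with 9 of 10 RAS-OFF arrays below all RAS-ON arrays. With arrays 4 and 5 as the RAS-ON group, Umps changed by -0.15 and did not pass (adjusted p = 0.197). Cad, the multifunctional enzyme gene that starts the pathway, separated the RAS-ON arrays: it stood at 10.85, 10.89 and 10.84 on arrays 1 to 3 and at 10.08 and 10.22 on arrays 4 and 5. RAS-OFF values of Cad ran from 10.40 to 11.06, and its change of 0.22 ± 0.14 (SE) did not pass (adjusted p = 0.225 in limma). Set against the pair 4 and 5, Cad rose by 0.65 (adjusted p = 0.00185), whereas set against the other 3 arrays it changed by -0.06 (adjusted p = 0.673). Dhodh, the mitochondrial enzyme gene between them, had a change of -0.01 ± 0.06 (SE) on its brightest probe set and fell by 0.49 ± 0.08 on its other one.

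Of the 9 deoxynucleotide genes 6 rose and 0 fell, or 66.7% higher, where 20.1% of all genes and 27.4% of those left without the dimmest 40% were higher. Their median was 0.30, against -0.04 for all genes. The count depends on the probe sets. With the mean of probe sets as the gene value, only Rrm2, Tyms and Dck of the 6 kept the call, and Rrm1, Rrm2b and Dut lost it. Rrm2, the cell-cycle-regulated small subunit of ribonucleotide reductase, had RAS-ON log2 intensities of 12.93, 12.87, 12.83, 12.90 and 12.86. In RAS-OFF arrays its lowest, median and highest values were 13.07, 13.36 and 13.50. All RAS-OFF arrays lay above all RAS-ON arrays, a rise of 0.42 ± 0.04 (SE), or 1.34-fold, with an adjusted p of 1.88e-06 in limma. Its 2 other probe sets rose by 0.36 ± 0.05 and 0.48 ± 0.09 (SE). Rrm1, the large subunit, rose by 0.30 ± 0.05 (SE; adjusted p = 8.2e-05 in limma), from 11.48 to 11.69 in RAS-ON to 11.64 to 12.14 in RAS-OFF arrays. A second bright Rrm1 probe set changed by 0.17 ± 0.15 (SE; adjusted p = 0.369 in limma over all probe sets), and the mean of the Rrm1 probe sets did not pass (0.14, adjusted p = 0.0716). Rrm2b, the alternative small subunit that p53 can induce, rose by 0.32 ± 0.07 (SE; adjusted p = 0.00176 in limma), though not with arrays 4 and 5 as the RAS-ON group (0.26, adjusted p = 0.0526). The 3 other Rrm2b probe sets, which lay below the median of every array, were not called. They changed by 0.03 ± 0.12, 0.05 ± 0.10 and 0.23 ± 0.18 (SE).

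Dck, deoxycytidine kinase, the salvage enzyme that also activates cytarabine, rose more than any other member. Its RAS-ON log2 intensities were 11.94, 11.93, 11.88, 11.57 and 11.65, and its lowest, median and highest RAS-OFF values were 12.27, 12.66 and 12.85. The groups did not overlap, and the rise of 0.84 ± 0.07 (SE), or 1.79-fold, had an adjusted p of 3.05e-07 in limma. Its other probe sets rose by 0.91 ± 0.09 and 1.21 ± 0.12 (SE). Tyms, thymidylate synthase, had RAS-ON log2 intensities of 7.53, 7.52, 8.11, 7.52 and 6.97 and ran from 7.28 through a median of 8.23 to 8.91 in RAS-OFF arrays. The groups overlapped, with 5 of 10 RAS-OFF arrays above all RAS-ON arrays, and the rise was 0.65 ± 0.15 (SE; adjusted p = 0.00242 in limma). With the mean of its 4 probe sets Tyms rose by 0.24 (adjusted p = 0.00345).

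Dut, the enzyme gene that removes dUTP, was higher by 0.17 ± 0.06 (SE; adjusted p = 0.0363 in limma), the smallest called rise. The Dut call was lost without RAS-ON replicate 2 or 3 (adjusted p = 0.0766 and 0.106), and without any of 6 RAS-OFF arrays. These were replicate 2 of 48 h (0.0653), replicates 1 and 2 of 60 h (0.0542 and 0.0552), the first replicates of 72 and 84 h (0.0643 and 0.0601) and replicate 2 of 96 h (0.0532). Tk1 makes dTMP by salvage, Dtymk phosphorylates dTMP to dTDP, and Dctd deaminates dCMP to dUMP. None of these genes passed in the mean over times, with changes of 0.09 ± 0.06, -0.08 ± 0.05 and -0.09 ± 0.13 (SE) in that order. Dctd was 7.87 to 8.04 on RAS-ON arrays 1 to 3 and 7.34 and 7.36 on arrays 4 and 5, and its 10 RAS-OFF values lay between 7.24 and 7.94.

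The nucleoside diphosphate kinases Nme1 and Nme2, which exchange phosphate between nucleoside di- and triphosphates, are neighbours on chromosome 11. Nme2 had RAS-ON log2 intensities of 13.15, 13.18, 13.14, 13.37 and 13.32 and RAS-OFF values with a lowest of 11.95, a median of 12.21 and a highest of 12.32. All RAS-OFF arrays lay below all RAS-ON arrays by a wide margin, a fall of 1.05 ± 0.06 (SE), or 2.08-fold (adjusted p = 4.33e-09 in limma). Nme1 was lower by 0.23 ± 0.07 (SE; adjusted p = 0.0154 in limma), with 9 of 10 RAS-OFF arrays below all RAS-ON arrays. The Nme1 call was lost without RAS-ON replicate 5 (-0.19, adjusted p = 0.0503) and with the first 3 arrays as RAS-ON (-0.14, adjusted p = 0.165). The coding sequences of this pair are closely alike, and whether their probe sets share signal was not tested.

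Among the folate genes, Mthfd1, the trifunctional cytosolic enzyme that makes the folate carbon donors for purines and dTMP, rose. Its RAS-ON log2 intensities were 10.65, 10.64, 10.66, 10.54 and 10.46, and its RAS-OFF values had a lowest of 11.15, a median of 11.29 and a highest of 11.59. The groups did not overlap, with a rise of 0.71 ± 0.06 (SE), or 1.63-fold (adjusted p = 3.63e-07 in limma), and its 2 other probe sets rose by 0.71 ± 0.11 and 1.09 ± 0.09. Mthfd1l, the mitochondrial enzyme gene that releases formate, had a change of 0.20 ± 0.09 (SE; adjusted p = 0.0701 in limma). It passed without RAS-ON replicate 5 (0.25, adjusted p = 0.029).

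**Figure D2:**
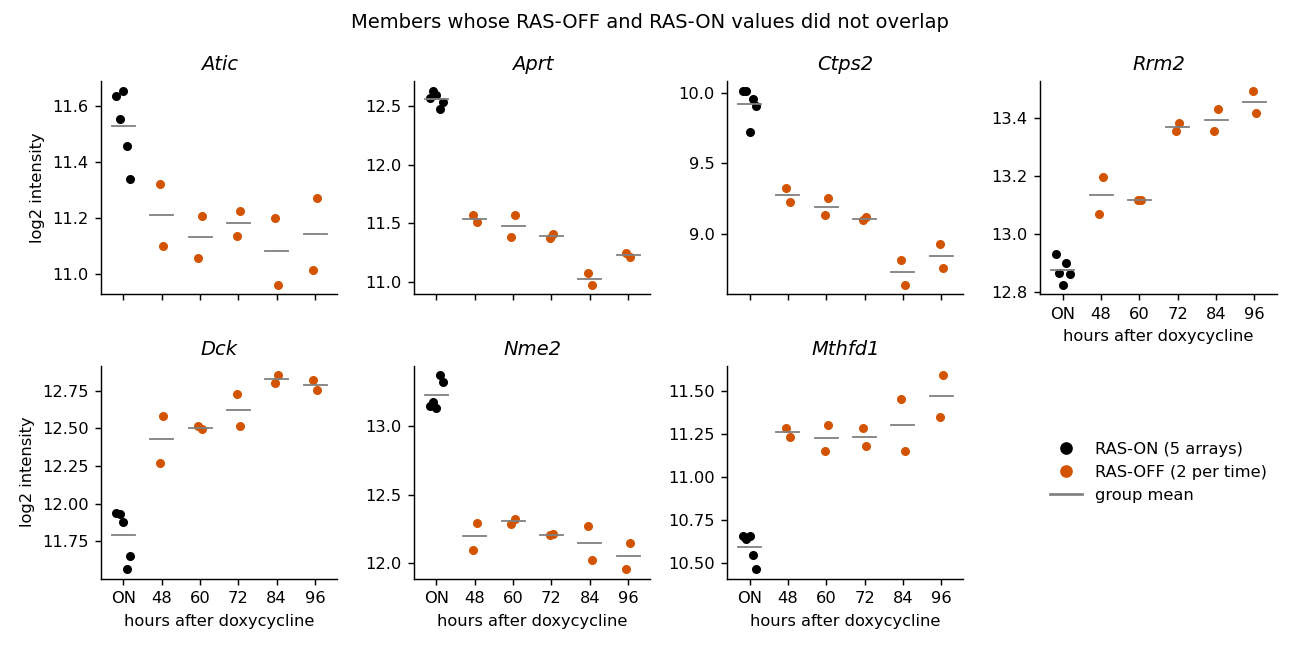
Log2 intensity (y axis) of the 7 members whose groups did not overlap, by hours after doxycycline (x axis; ON is RAS-ON at 0 h). Each point is an array, black for the 5 RAS-ON and orange for the 10 RAS-OFF arrays, and grey bars are group means; Atic, Aprt, Ctps2 and Nme2 lie below and Rrm2, Dck and Mthfd1 above all RAS-ON arrays at every time.

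Shmt1, which encodes the cytosolic serine hydroxymethyltransferase that loads folate with a carbon from serine, gave different answers on different probe sets. Its brightest probe set, 1425177_at, ran from 8.80 to 9.28 in RAS-ON and from 8.90 to 9.40 in RAS-OFF arrays, a change of 0.17 ± 0.08 (SE) that did not pass (adjusted p = 0.109 in limma). It passed without RAS-ON replicate 2 (0.23, adjusted p = 0.0298). The 3 other probe sets each gave groups that did not overlap, with RAS-OFF lower. Probe set 1425179_at fell by 1.53 ± 0.08 (SE), from 9.13 to 9.52 in RAS-ON to 7.55 to 8.09 in RAS-OFF arrays. Probe sets 1422198_a_at and 1425178_s_at fell by 1.32 ± 0.08 and 0.65 ± 0.05 (SE). With the mean of its 4 probe sets as the gene value, Shmt1 fell by 0.83 (adjusted p = 1.18e-08 in limma). Which part of the transcript each probe set reads was not analysed here.

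Of the 32 members 21 had more than 1 probe set. Of the 14 called ones among them, 5 had the same call on all their probe sets: Atic, Aprt, Rrm2, Dck and Mthfd1. Of these 14, only Gmps had another probe set called in the opposite direction. Among members that did not pass, 5 had another probe set that did: Prps2, Gart, Paics, Dhodh and Shmt1. The other probe sets of Gart were called in both directions.

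**Figure D3:**
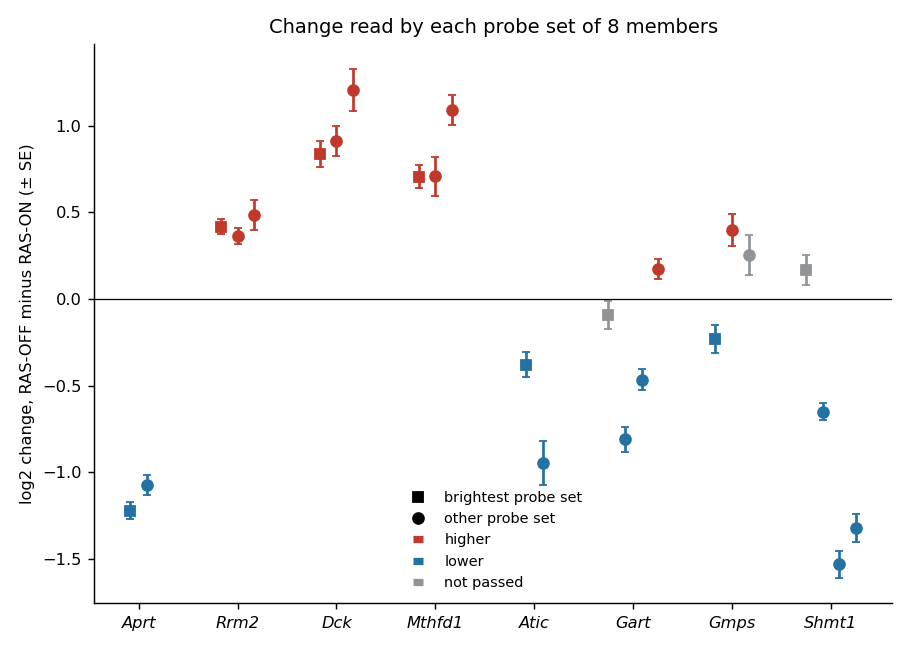
Log2 change with standard error (y axis) read by each probe set of 8 members (x axis), all probe sets being tested in the same limma fit. Squares mark the brightest probe set of a gene and circles the others, coloured by call; the probe sets of Aprt, Rrm2, Dck, Mthfd1 and Atic agree in direction, while those of Gart, Gmps and Shmt1 do not.

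Where members stood in pairs that encode the same kind of enzyme or subunit, their within-array log2 ratio was compared between groups, which shows unequal change but not unequal level. There were 5 such pairs, each tested by a two-sided exact permutation test over 3003 splits of the 15 arrays, where the smallest possible p is 0.000333. The Ctps to Ctps2 ratio averaged 0.39 ± 0.09 over RAS-ON (SD, n = 5) and 1.38 ± 0.30 over RAS-OFF arrays (SD, n = 10). It shifted by 0.998 toward Ctps with an exact p of 0.000333 (0.000833 adjusted over the pairs). With the mean of probe sets the shift was 0.451, and Ctps2 itself then fell by 0.35. The Nme1 to Nme2 ratio shifted by 0.82 toward Nme1, with the same exact p. In both pairs all 10 RAS-OFF arrays lay above all RAS-ON arrays.

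The Mthfd1 to Mthfd1l ratio shifted by 0.51 toward Mthfd1 (exact permutation p = 0.000666, 0.00111 adjusted), although RAS-ON replicate 3 lay within the RAS-OFF range. The Prps1 to Prps2 ratio shifted by 0.17 toward Prps1 (exact permutation p = 0.025, 0.0312 adjusted), and by 0.336 with the mean of probe sets. That Prps call was lost without RAS-ON replicate 2 or 3 (shift 0.142 and 0.146, adjusted p = 0.109 and 0.106) and without RAS-OFF 60 h replicate 1 or 2 (shift 0.16 and adjusted p = 0.0556 for each). The Rrm2 to Rrm2b ratio did not pass, with a shift of 0.10 and an exact permutation p of 0.472.

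**Figure D4:**
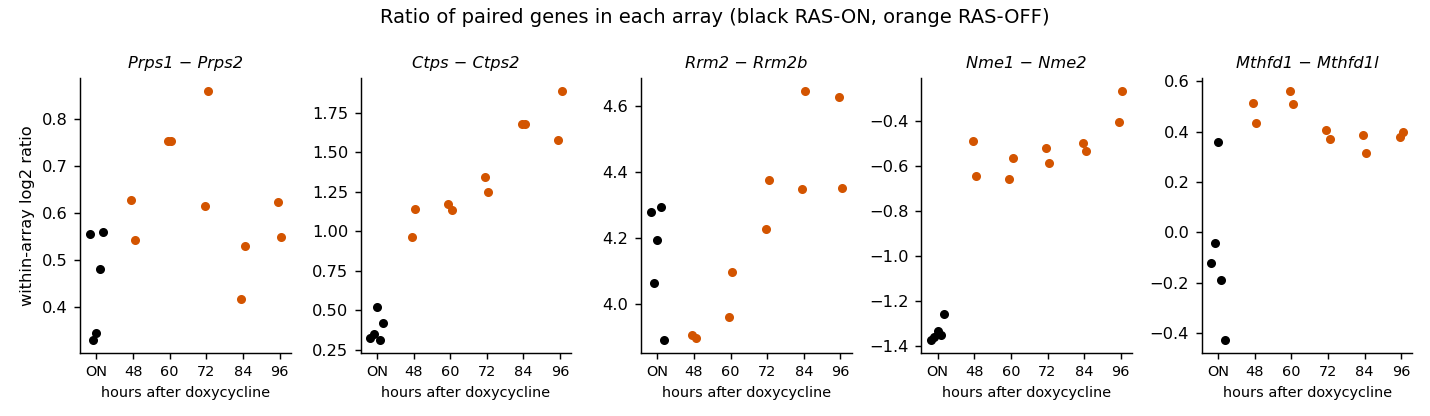
Within-array log2 ratio (y axis) of 5 pairs of genes by hours after doxycycline (x axis; ON is RAS-ON at 0 h), each point an array, black for RAS-ON and orange for RAS-OFF. The Ctps to Ctps2 and Nme1 to Nme2 ratios lie above the RAS-ON arrays at every time, while the Rrm2 to Rrm2b ratio overlaps them.

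The 5 times were each set against the same 5 RAS-ON arrays, so their values are not independent of each other. At 48 h 5 members were higher and 4 lower, 28.1% of 32, where 27.4% of all genes were called, 13.7% in each direction. At 60 h 4 were higher and 6 lower (31.2%, where all genes gave 25.8%, 11.5% higher and 14.2% lower), and at 72 h 7 were higher and 4 lower (34.4%, where all genes gave 31.8%, 13.4% higher and 18.3% lower). At 84 h 7 were higher and 4 lower (34.4%, where all genes gave 36.8%, of which 21.8 percentage points were lower), and at 96 h 10 were higher and 6 lower (50.0%, where all genes gave 37.6%, 16.7% higher and 20.9% lower). Aprt, Ctps2, Nme2 and Atic were lower and Rrm2, Dck and Mthfd1 were higher at each of the 5 times. These counts depend on single arrays: 5 members were called at 48 h without its replicate 2, 6 at 60 h without either replicate, and 7 and 6 at 72 h without replicate 1 or 2.

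The slope over the RAS-OFF times, which uses no RAS-ON array in the contrast, was called for 8 members: 6 upward and 2 downward, or 25.0%, where 13.7% of all genes were called, 5.00% upward and 8.75% downward. All 6 upward slopes were of deoxynucleotide genes. Rrm1 changed against RAS-ON by 0.17, 0.05, 0.30, 0.45 and 0.52 at 48, 60, 72, 84 and 96 h, a slope of 0.11 ± 0.02 (SE) log2 units per 12 h with an adjusted p of 0.00134 in limma. Rrm2 stood at 0.26, 0.24, 0.49, 0.52 and 0.58 at these times, and its slope was 0.09 ± 0.02 (SE; adjusted p = 0.00356). For both subunits the values at 48 and 60 h lay below those from 72 h on.

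Tyms had the steepest slope, 0.26 ± 0.06 (SE; adjusted p = 0.0122 in limma), and stood at 0.31, 0.12, 0.70, 0.96 and 1.18. Without RAS-OFF 48 h replicate 1 or 96 h replicate 1 the Tyms slope did not pass (adjusted p = 0.077 and 0.0898). Tk1, the thymidine kinase gene whose mean change did not pass, went from -0.16 and -0.25 at 48 and 60 h to 0.21, 0.41 and 0.24 later, a slope of 0.15 ± 0.03 (SE; adjusted p = 0.00197 in limma). Dtymk, which phosphorylates dTMP, went from -0.16 and -0.34 to -0.06, -0.03 and 0.18, a slope of 0.10 ± 0.02 (SE; adjusted p = 0.00602 in limma). For these genes the mean over times joins low early and higher late values.

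Dck, already higher at 48 h by 0.63, stood at 0.71, 0.83, 1.03 and 0.99 later, a slope of 0.10 ± 0.03 (SE; adjusted p = 0.0358 in limma). The Dck slope was lost without any 1 of 48 h replicate 1 (adjusted p = 0.287), 60 h replicates 1 and 2 (0.0645 and 0.0686), 84 h replicates 1 and 2 (0.0555 and 0.0715) and 96 h replicates 1 and 2 (0.137 and 0.0775). The downward slopes were those of Ctps2, with -0.65, -0.73, -0.82, -1.20 and -1.08, and Aprt, with -1.02, -1.08, -1.16, -1.52 and -1.33. Their slopes were -0.13 ± 0.02 and -0.11 ± 0.02 (SE; adjusted p = 0.00249 and 0.00257 in limma). Both genes were lowest at 84 h. Rrm2b ran against Rrm1 and Rrm2, with 0.50, 0.36, 0.34, 0.16 and 0.23, but its slope of -0.07 ± 0.03 (SE) did not pass (adjusted p = 0.113 in limma). With 48, 84 and 96 h replicate 1 left out together, only the Tk1 and Ctps2 slopes passed. With the mean of probe sets as the gene value 4 of the 8 slopes did not pass: Ctps2 (-0.045, adjusted p = 0.13), Rrm1 (0.037, 0.362), Dck (0.084, 0.107) and Dtymk (0.072, 0.0863). The Tyms slope was then 0.12 and passed (adjusted p = 0.00445). Without the 96 h arrays the Dtymk slope was 0.068 (adjusted p = 0.199) and the Tyms slope 0.253 (adjusted p = 0.108), and neither passed.

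**Figure D5:**
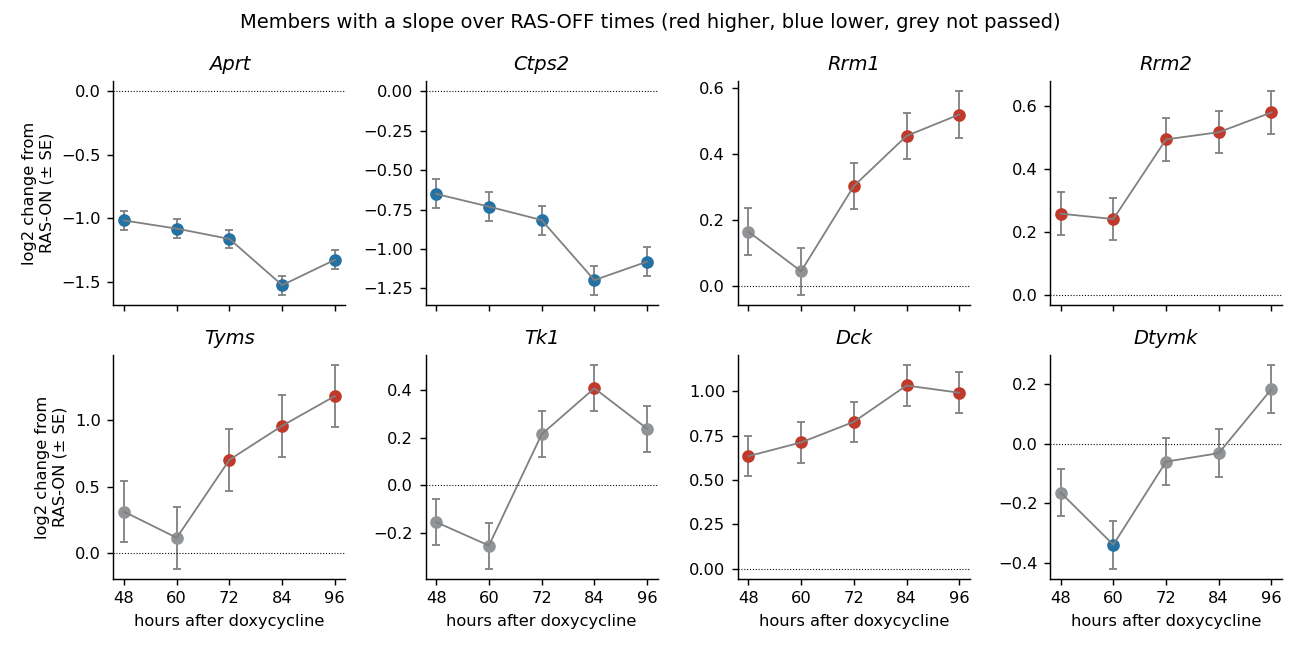
Log2 change from RAS-ON with standard error (y axis) at each RAS-OFF time (x axis, hours after doxycycline) for the 8 members with a called slope. Red points were called higher, blue lower and grey did not pass; Rrm1, Rrm2, Tyms, Tk1, Dck and Dtymk end higher than they began and Aprt and Ctps2 end lower.

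Lists of S-phase, mitosis and cell-type markers were read beside the deoxynucleotide genes. The median change of 25 S-phase genes, such as the Mcm helicase subunits, was 0.07, -0.06, 0.25, 0.42 and 0.48 at the 5 times, and that of the 9 deoxynucleotide genes was 0.17, 0.09, 0.30, 0.41 and 0.28. In the mean over times 19 of the 25 S-phase genes rose and 1 fell, and of 14 mitosis genes 10 rose and 1 fell. Of all genes 20.1% were higher and 28.7% lower, or 27.4% and 36.3% without the dimmest 40%. Upward slopes were called for 20 of the 25 S-phase and 9 of the 14 mitosis genes, where 5.00% of all genes had one. Mki67, a marker of cycling cells, rose by 0.58 ± 0.05 (SE). All 12 erythroid genes rose, with medians of 1.33, 1.30, 1.58, 1.66 and 1.57 at the 5 times. Of 11 red pulp macrophage genes 8 rose and 3 fell, and all 7 megakaryocyte genes rose. An upward slope was called for 5 of the 12 erythroid, 0 of the 11 macrophage and 0 of the 7 megakaryocyte genes. The part of these cells in the rise of the deoxynucleotide genes, or in the fall of Aprt, Nme2 and Ctps2, was not tested.

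Short promoter windows of the members were read from RefSeq for GRCm38.p6, each 300 bases long, and 29 of the 32 members were matched. They were searched on both strands for CACGTG, an E-box bound by MYC among other factors, and for 4 spellings of the E2F site, TTTCCCGC, TTTCGCGC, TTTGGCGC and TTTGCCGC. Both factors are known for control of nucleotide genes. The E-box letters stood in a window of 5 members (17.2% of matched members, 8.09% of the 27025 genes in the table) and the E2F letters in 2, Ppat and Prps2 (6.9%, against 2.6%). The 5 with an E-box were Atic and Nme1, which fell, Tyms, which rose, and Paics and Dtymk, which did not pass in the mean over times. Of the 7 members without overlap, Atic held an E-box, and neither motif was found for the rest of these 7. Myc had a change of -0.41 ± 0.10 (SE; adjusted p = 0.00348 in limma); its part in these values was not tested. The windows are shown for the 4 genes where the letters lie before the annotated gene span, outside a neighbouring gene, read 5′ to 3′ on the gene's own strand with the E-box in capitals. The Atic stretch is chr1:71557127-71557155 (forward strand, E-box 7 bases before the start), Nme1 chr11:93968273-93968312 (reverse, 18), Tyms chr5:30073659-30073708 (reverse, 61 bases before one of its annotated starts) and Dtymk chr1:93802055-93802104 (reverse, 148, likewise).
Atic: aggaggggcgggacctcggggtCACGTGg
Nme1: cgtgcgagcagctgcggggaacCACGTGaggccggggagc
Tyms: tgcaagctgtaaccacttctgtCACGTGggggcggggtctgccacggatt
Dtymk: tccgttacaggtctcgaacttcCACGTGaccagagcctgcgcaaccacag

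Of 54 further measured genes of nucleotide and folate metabolism 13 rose, 15 fell and 26 did not pass, with a median of -0.05. Their shares of 24.1% higher and 27.8% lower lay near the 20.1% and 28.7% of all genes. Cmpk2, a mitochondrial UMP-CMP kinase gene induced by interferon, rose by 1.90 ± 0.13 (SE). Ampd3, the AMP deaminase of red cells, rose by 1.33 ± 0.09 and Nt5c3, the pyrimidine nucleotidase of red cells, by 1.24 ± 0.06. Ak3, a mitochondrial adenylate kinase gene, rose by 0.75 ± 0.06, Mthfd2, a mitochondrial folate enzyme gene, by 0.69 ± 0.07 and Cda, cytidine deaminase, which lay below the median of every array, by 0.63 ± 0.10. Ampd3 and Nt5c3 are genes of the lineage whose 12 markers rose in these arrays; the part of erythroid cells in their rise was not tested.

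Among the 6 largest falls were both adenylosuccinate synthase genes of the route to AMP, Adssl1 by 1.31 ± 0.06 (SE) and Adss by 0.64 ± 0.06. Ggh, which trims folate chains, fell by 0.98 ± 0.10. Psat1 and Phgdh, which make the serine used by folate enzymes, fell by 0.92 ± 0.13 and 0.87 ± 0.12, and Uck2, the uridine-cytidine kinase gene, by 0.56 ± 0.09. Adss, Adssl1, Ggh and Psat1 had RAS-OFF values wholly below their RAS-ON range. Shmt2, the mitochondrial partner of Shmt1, had a change of -0.14 ± 0.10 (SE; adjusted p = 0.257 in limma).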

How the data were processed

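RNA was amplified and biotin-labelled, per the labels' protocols, and read on Affymetrix mouse arrays of 45101 probe sets. The authors deposited 1 intensity per probe set on a linear scale. The submitters' processing notes name RMA, with no version given in the sources used here. RMA gives all arrays similar distributions, so a change of most genes in 1 direction would not show. Median intensities were 149.99 to 156.53; the number of arrays limits the precision.

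Log2 was taken of all probe sets, of which 34945 had 1 symbol in the platform annotation. Each of 18193 genes was represented by its brightest probe set. limma 3.58.1 in R 4.3.3 fitted 1 mean per group over all 15 arrays, with Benjamini-Hochberg adjustment over all genes. The averaged RAS-OFF times and each single time were set against RAS-ON, and a slope per 12 h was fitted through the RAS-OFF means. Fold changes are on the log2 scale of intensities. The code was tested on simulated data. Within groups arrays correlated at 0.990 or more, and 0 pairs were identical.

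The members, lists and alternatives were chosen with earlier results of these data known. Named were all members, the 6 largest called rises and falls of the further pathway list, and Shmt2, Mthfd2, Nras, Myc and Mki67; 1 further named item is not reported here. Promoter sequences came from RefSeq (GRCm38.p6). Alternatives were 29 other fits of the whole table, 15 of which left out 1 array, and each other probe set.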

Additional observations from a re-analysis of the deposited data

Results flagged for a closer look

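The changes at the 5 RAS-OFF times differed from each other, by the test of the slope per 12 h, for 8 members. The slopes were 0.26 for Tyms, 0.15 for Tk1, 0.11 for Rrm1, 0.10 for Dck, 0.10 for Dtymk and 0.092 for Rrm2, and -0.13 for Ctps2 and -0.11 for Aprt. No RAS-ON value of a member stood apart from its group by Dixon's test.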

How the results depend on the processing

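Over the 29 other fits, 9 of the 19 called members had the same call in each: Rrm2, Tyms, Dck and Mthfd1 higher, and Atic, Impdh1, Aprt, Ctps2 and Nme2 lower. The other 10 lost the call in at least 1. The cause was not tested. With the mean of probe sets 5 members were called higher, all among the main 9, and 13 lower. The replicate number showed no clear pairing: 2 of 10 correlations between RAS-OFF times exceeded 0.1, with a range of -0.231 to 0.217. With 2 arrays per time this check cannot exclude a pairing. With the replicate number as a block 7 of the 9 higher and 6 of the 10 lower members were called, and 6 were lower in all. Replicates 3, 4 and 5 occur only in RAS-ON, so that fit in effect sets RAS-ON arrays 1 and 2 against RAS-OFF. Its lost calls cannot be put down to pairing. Without 48, 84 and 96 h replicate 1, 2 slopes were called, with fewer arrays at 3 times. With 1 array left out in turn the count of called members was 5 to 11 at 48 h, 6 to 12 at 60 h, 6 to 13 at 72 h, 8 to 14 at 84 h, 12 to 16 at 96 h and 6 to 9 for the slope. The Prps1 to Prps2 shift was 0.142 to 0.200 with 1 array left out, 0.204 without 48, 84 and 96 h replicate 1, and 0.107 (adjusted p = 0.379) with RAS-ON arrays 4 and 5 only.

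Directions turned mostly where the main change was small or on another probe set. With the mean of probe sets the change was 0.025 for Paics, 0.14 for Gmps and -0.83 for Shmt1. With RAS-ON arrays 4 and 5 only it was 0.003 for Paics, 0.10 for Dhodh, -0.01 for Tk1 and 0.27 for Dctd. For Cad it was -0.072 with the block and -0.063 with RAS-ON limited to arrays 1 to 3. For Dhodh it was 0.01 with arrays centred on their medians and 0.005 without the 48 h arrays, and with 1 array left out it ranged from -0.056 to 0.026. Other probe sets gave -0.21 and -0.001 for Ppat, 0.17 for Gart, 0.18 for Paics, 0.25 and 0.40 for Gmps, -0.07 and -0.14 for Cad, -0.054 for Rrm1, -0.021 for Dut, and -0.65, -1.32 and -1.53 for Shmt1. Centring the arrays moved the median of all genes from -0.04 to -0.02. Dim probe sets limit Dctd and Tyms.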
